A study of Mus musculus with 6 samples.

Results

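β-catenin occupancy of promoters was measured by chromatin immunoprecipitation on promoter arrays (ChIP-chip) in mouse keratinocytes that were differentiating in culture. The 3 arrays of the β-catenin antibody were selected by their antibody label, out of 6 arrays in the series, and are called arrays 1 to 3. The cells were C57BL/6J keratinocytes, the main cells of the epidermis, grown to confluency and then held for 4 days in medium with high calcium, a change that starts terminal differentiation. Chromatin was crosslinked with 2 mM DSG, which joins proteins to each other, and with 1% formaldehyde, and was sheared to about 500 bp. Each array compared DNA recovered with a BD Biosciences β-catenin antibody (Cy5) with the input DNA of the same kind of cells (Cy3). The other 3 arrays used an antibody to Plakoglobin, the closest relative of β-catenin, on cells of the same strain and treatment. No genotype other than the strain was named, arrays with a mock antibody were not analysed here, and the input was the only background. Nothing in the labels says that the 3 arrays came from separate cultures, so tests measure the spread between these arrays. Ratios of ChIP over input are not expression, so the keratinocyte label could not be checked against marker genes.

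β-catenin, the product of Ctnnb1, holds cadherins to the actin cytoskeleton at adherens junctions. Without a Wnt signal its free pool is marked for degradation by a complex of Axin, APC and the kinase GSK3. With a Wnt signal it enters the nucleus and joins TCF/LEF factors, which bring it to DNA, since it has no DNA-binding domain. In the epidermis it is known for its part in hair follicle formation and stem cell activity.

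Each value below is a log2 ratio of ChIP over input, averaged over the probes of a promoter sequence and centred so that 0 is the median promoter of its array. A value of 1 is a ratio 2 times that of the median promoter. There were 26200 promoter sequences with a value, and they covered 15647 genes with a name. A gene with several promoter sequences was given their mean on each array.

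The windows of 250 bases before the start site are shown for 3 promoters that were above the median on all 3 arrays (Capn7, Mef2a, Clca2), for the Wnt target genes Sp5 and Axin2, and for Hexim1, whose high ratio was on array 3. The sequences are those of RefSeq on GRCm38.p6, read 5′ to 3′ on the strand of the gene. Capitals mark the core letters of a TCF/LEF site on either strand, which are CTTTGAA or else CTTTGAT or else CTTTGTA or else CTTTGTT. The Sp5 window held 2 of them, and the windows of the other 5 genes held 0. The regions tiled on the array are not known here and can differ from these windows.
Capn7: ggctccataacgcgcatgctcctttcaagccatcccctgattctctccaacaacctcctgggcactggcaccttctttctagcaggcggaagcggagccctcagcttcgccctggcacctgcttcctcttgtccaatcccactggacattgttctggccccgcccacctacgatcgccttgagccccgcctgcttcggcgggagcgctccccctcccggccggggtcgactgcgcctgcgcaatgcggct
Mef2a: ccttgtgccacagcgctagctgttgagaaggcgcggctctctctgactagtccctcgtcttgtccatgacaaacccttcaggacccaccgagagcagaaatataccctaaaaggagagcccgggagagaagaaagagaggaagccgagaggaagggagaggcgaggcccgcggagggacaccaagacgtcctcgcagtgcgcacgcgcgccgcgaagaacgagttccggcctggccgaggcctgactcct
Clca2: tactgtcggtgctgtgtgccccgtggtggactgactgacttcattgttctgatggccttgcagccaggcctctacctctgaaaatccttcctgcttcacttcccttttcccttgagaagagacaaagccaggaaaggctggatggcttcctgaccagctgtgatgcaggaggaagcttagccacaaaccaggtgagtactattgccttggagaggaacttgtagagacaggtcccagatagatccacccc
Sp5: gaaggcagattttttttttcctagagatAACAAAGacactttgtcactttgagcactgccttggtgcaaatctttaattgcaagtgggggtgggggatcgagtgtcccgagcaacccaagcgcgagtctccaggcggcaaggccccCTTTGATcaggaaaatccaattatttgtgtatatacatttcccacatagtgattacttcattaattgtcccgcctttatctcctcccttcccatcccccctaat
Axin2: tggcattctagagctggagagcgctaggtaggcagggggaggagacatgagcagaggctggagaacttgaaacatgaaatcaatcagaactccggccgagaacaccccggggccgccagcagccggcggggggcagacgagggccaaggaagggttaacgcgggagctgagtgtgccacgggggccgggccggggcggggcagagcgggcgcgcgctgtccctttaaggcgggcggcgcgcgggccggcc
Hexim1: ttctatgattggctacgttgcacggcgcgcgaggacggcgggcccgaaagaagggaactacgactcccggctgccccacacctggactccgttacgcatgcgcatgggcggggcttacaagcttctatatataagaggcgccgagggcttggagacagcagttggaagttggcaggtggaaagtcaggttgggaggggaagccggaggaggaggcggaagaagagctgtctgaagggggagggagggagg
These windows lie at chr14:31336388-31336637, plus strand (Capn7), chr7:67372859-67373108, minus strand (Mef2a), chr3:145099107-145099356, minus strand (Clca2), chr2:70474673-70474922, plus strand (Sp5), chr11:108920099-108920348, plus strand (Axin2) and chr11:103116075-103116324, plus strand (Hexim1). Their GC content ran from 46.0% in Sp5 to 69.2% in Axin2.

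No promoter passed the test against the median promoter. Of 26200 promoter sequences, 0 (0%) passed an adjusted p of 0.05 in limma, and the lowest adjusted p was 0.894. Before adjustment, 68 promoters (0.26%) above the median promoter and 392 (1.5%) below it had a p under 0.05. Over both directions 1310 would be expected by chance at that threshold, more than were found. The lean to the low side depended on the fit, since without a trend in eBayes the counts were 310 above and 275 below. A fit that took arrays of the same replicate number as a block gave 55 and 2414, and 0 passed after adjustment. Its error leaves out the spread shared by arrays of the same number. These 2 counts thus do not measure the mean against the full spread between arrays. On all 3 arrays, 4281 promoters (16.3%) were above the median and 4049 (15.5%) were below it. Every list count below is to be read against such shares, and no gene named below passed the adjusted threshold.

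The 3 arrays differed in shape. Array 1 was narrow, with an interquartile range of 0.171 and 325 promoters over 1. Array 2 was broad in its middle, with an interquartile range of 0.706, and had 852 promoters over 1 and 901 under -1. Array 3 had a narrow middle, with an interquartile range of 0.267, but the longest upper tail, with 1558 promoters over 1 and a highest value of 6.12. The authors' peak lists held 436, 330 and 1958 peaks for arrays 1 to 3. The median spread between the probes of a promoter was 0.265, 0.75 and 0.294 (SD) on arrays 1 to 3, so array 2 also had the most variable probes. The Plakoglobin arrays of the same numbers had interquartile ranges of 0.361, 0.722 and 0.27 and probe spreads of 0.359, 0.663 and 0.297. Array 2 was thus the broadest in its middle, with the most variable probes, for both antibodies. Promoters over 1 numbered 2178, 2799 and 1364 on Plakoglobin arrays 1 to 3, so array 3 had the fewest there. Over all promoters the Spearman correlations were 0.14 between arrays 1 and 2, 0.135 between 1 and 3 and 0.069 between 2 and 3. Each β-catenin array correlated more with the Plakoglobin array of the same number, at 0.347, 0.376 and 0.414 for arrays 1 to 3. Promoters are not independent of each other, so these values are descriptions.

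**Figure D1:**
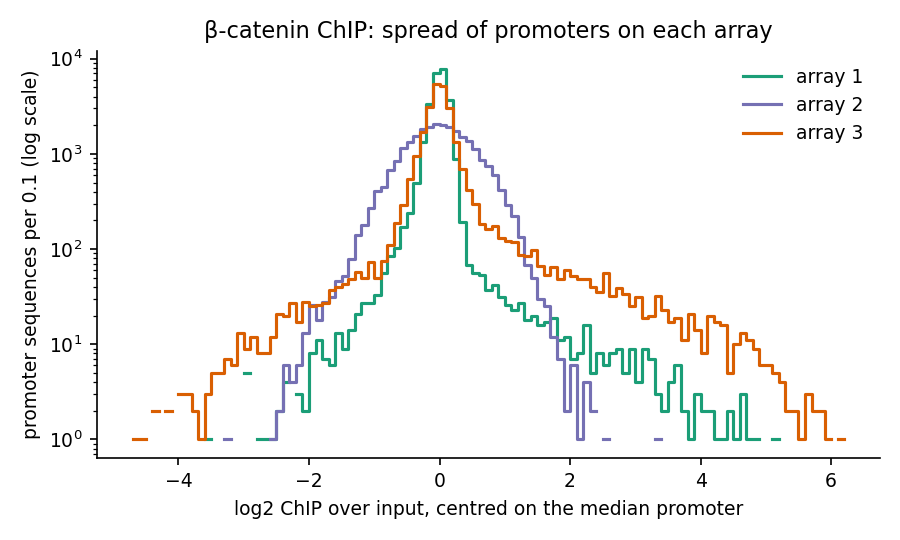
Number of promoter sequences (log scale) in steps of 0.1 of the centred log2 ratio of β-catenin ChIP over input, with 1 line for each of the 3 arrays. Array 2 is widest around 0, with an interquartile range of 0.706, and array 3 reaches farthest to the right, with 1558 promoters over 1 against 325 on array 1.

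The promoters with the highest mean owed their rank to array 3. Among the 100 promoters with the highest mean of the 3 arrays, array 3 gave the highest value in 90, array 1 in 10 and array 2 in 0. The median over these 100 was 4.56 on array 3, against 0.16 for the mean of arrays 1 and 2, and 32 of the 100 were above 0 on all 3 arrays. When array 3 was left out, 12 of the 100 stayed among the 100 highest. When array 1 or array 2 was left out instead, 86 and 66 stayed. Of the 500 highest promoters 78 stayed without array 3, and of the 1000 highest 217. The low end leaned the same way, with array 3 lowest in 74 of the 100 promoters with the lowest mean.

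**Figure D2:**
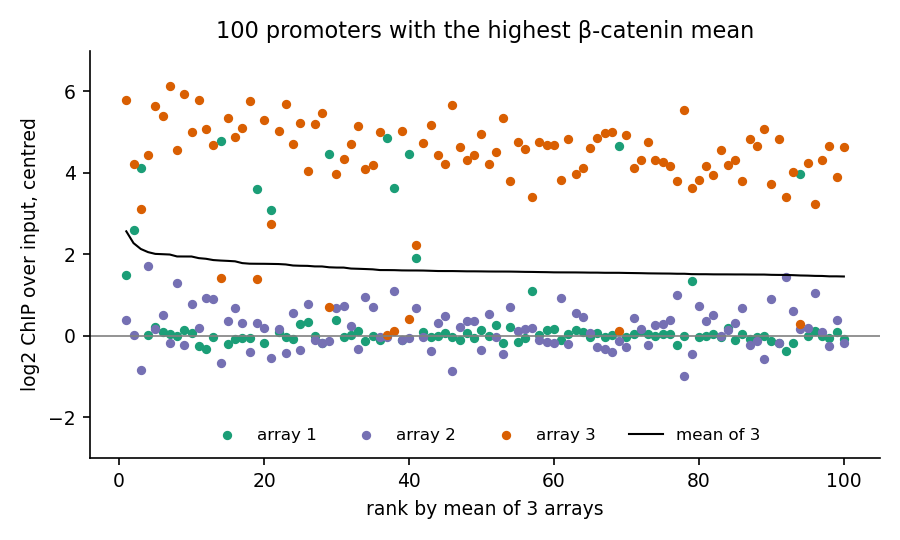
The 100 promoters with the highest mean β-catenin ratio, ordered by that mean (black line), with the centred log2 ratio on each of the 3 arrays as points. The points of array 3 lie far above the others in most promoters, and it holds the highest value in 90 of 100.

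The genes with the largest excess of array 3 over the other arrays had no common function by their names. P2rx3, an ATP-gated ion channel of sensory neurons, had -0.26, 0.18 and 5.80 on arrays 1 to 3. Rcor1, a corepressor that works with the REST factor, had -0.17, -0.46 and 5.36. Only array 3 was high at both genes. Gsta2, a glutathione transferase, had -0.54, -1.42 and 4.76, and Hsd3b4, a steroid dehydrogenase, had -0.30, -0.75 and 5.04. Gml2 had 0.00, -0.98 and 5.55 and Aadacl4fm1 had 0.20, 0.17 and 5.65. At each of these 6 genes array 3 lay more than 4 log2 units above both others, and the limma adjusted p over input was between 0.894 and 0.900. The transcripts 4833414E09Rik and E230016K23Rik completed the 8 named by this rule, with 5.70 and 5.25 on array 3 and values of -0.03 to -1.13 on arrays 1 and 2.

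The highest promoters of 2 arrays overlapped little, and the lowest overlapped more. The 1000 highest promoters of an array are 3.82% of all promoters. Of these, arrays 1 and 2 shared 34, arrays 1 and 3 shared 40 and arrays 2 and 3 shared 15, which is 1.5% to 4.0% of each list. The 1000 lowest shared 99, 80 and 93 in the same order. Promoters whose only listed peak was on array 3 (2151 sequences) had medians of -0.01 and -0.07 on arrays 1 and 2, against 1.19 on array 3. Those without a peak on any β-catenin array (22963 sequences) had medians of -0.00, -0.00 and -0.02. Promoters with a peak on array 1 alone (452) had medians of 1.00, -0.08 and 0.02, and those with a peak on array 2 alone (449) had 0.03, 0.91 and 0.05. Peaks were called from the same ratios, so a high value on the array of the peak comes with the choice of these sets.

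Some promoters were steadily above the median. Capn7, an intracellular cysteine protease on chromosome 14, had 0.76, 0.79 and 0.80 on arrays 1 to 3. It was the gene with the highest value on its lowest array, with a mean of 0.78 ± 0.02 (SD, n = 3). Mef2a, a MADS-box transcription factor on chromosome 7, had 0.55, 0.71 and 0.82, and listed peaks on arrays 1 and 3. Sec61a1, a subunit of the channel that passes proteins into the endoplasmic reticulum, had 0.66, 0.61 and 1.40 with a peak on array 3. Clca2, an epithelial protein of the family of calcium-activated chloride channel regulators, had 1.97, 0.44 and 1.12, with peaks on arrays 1 and 3. Clca2 also had the smallest unadjusted p of the genes above the median, with a mean of 1.18 ± 0.77 (SD, n = 3) and a limma adjusted p of 0.894. At Clca2 the Plakoglobin arrays had -0.14, -0.35 and 0.04, below all 3 β-catenin values, an order found at 673 of 26200 promoters (2.57%). Plakoglobin was above 0 at other steadily high genes, with 0.13, 0.52 and 0.64 at Mef2a and 0.78, 0.40 and -0.04 at Capn7. Across all promoters the difference between the antibodies passed an adjusted p of 0.05 in limma at 0 of 26200 (0%), with a lowest adjusted p of 0.9999. At an unadjusted p under 0.05, 42 were higher with β-catenin and 149 lower, where 1310 would be expected by chance over both directions. When a block for the array number was added to the fit, 121 were higher, 186 were lower and 0 passed (lowest adjusted p 0.890). At Clca2 the differences by array number were 2.11, 0.79 and 1.08.

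Further genes high on each array were Arl8b, a small GTPase of lysosomes, with 0.43, 0.57 and 0.49, and Gfra2, a receptor of GDNF family ligands, with 0.62, 0.38 and 0.41. Tomm70a, a receptor for protein import into mitochondria, had 0.33, 0.65 and 0.47. At these 3 genes the arrays lay close together and no β-catenin peak was listed. Plakoglobin had 1.81, 0.49 and 0.02 at Arl8b and 0.67, 0.92 and 0.17 at Tomm70a. Cnih1 and the odorant receptor gene Olfr676 were above 0.3 on each array but rested mainly on array 3, with 4.05 and 3.97 there. Uspx had 0.34, 0.79 and 0.40. Mest, an imprinted gene, had 1.49, 0.69 and 0.18, and Foxi2, a forkhead factor, had 0.65, 0.61 and 0.13. Srsf11, a splicing factor, had -0.10, 1.57 and 1.29. Both Mest and Foxi2 fell toward the median on array 3, where Srsf11 was high.

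At the low end, 1700024B05Rik on chromosome 14 had -1.86, -0.89 and -1.09. The Plakoglobin arrays were high at the same promoter, with 0.45, 0.95 and 1.63, so the groups did not overlap. All 3 β-catenin arrays lay below all 3 Plakoglobin arrays at 673 promoters (2.57%), and above them at 673 (2.57%). β-catenin minus Plakoglobin was -2.29, with a limma adjusted p of 1 for that difference. By array number the differences were -2.31, -1.83 and -2.73, with an adjusted p of 0.890 in the fit with the block. Ier2, an immediate early gene, had -0.48, -0.69 and -1.52, and Trhr, a receptor for thyrotropin-releasing hormone, had -0.52, -0.65 and -0.45. Clp1, an RNA kinase of 3′-end processing, had -0.42, -0.59 and -1.49. At Ier2, Trhr and Clp1 the Plakoglobin arrays were low as well, from -0.28 to -1.63. Pdzrn3, a ubiquitin ligase, had -0.36, -0.47 and -0.39, and Acot4, a peroxisomal thioesterase, had -0.27, -0.66 and -0.46. None of these low promoters had a listed β-catenin peak.

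**Figure D3:**
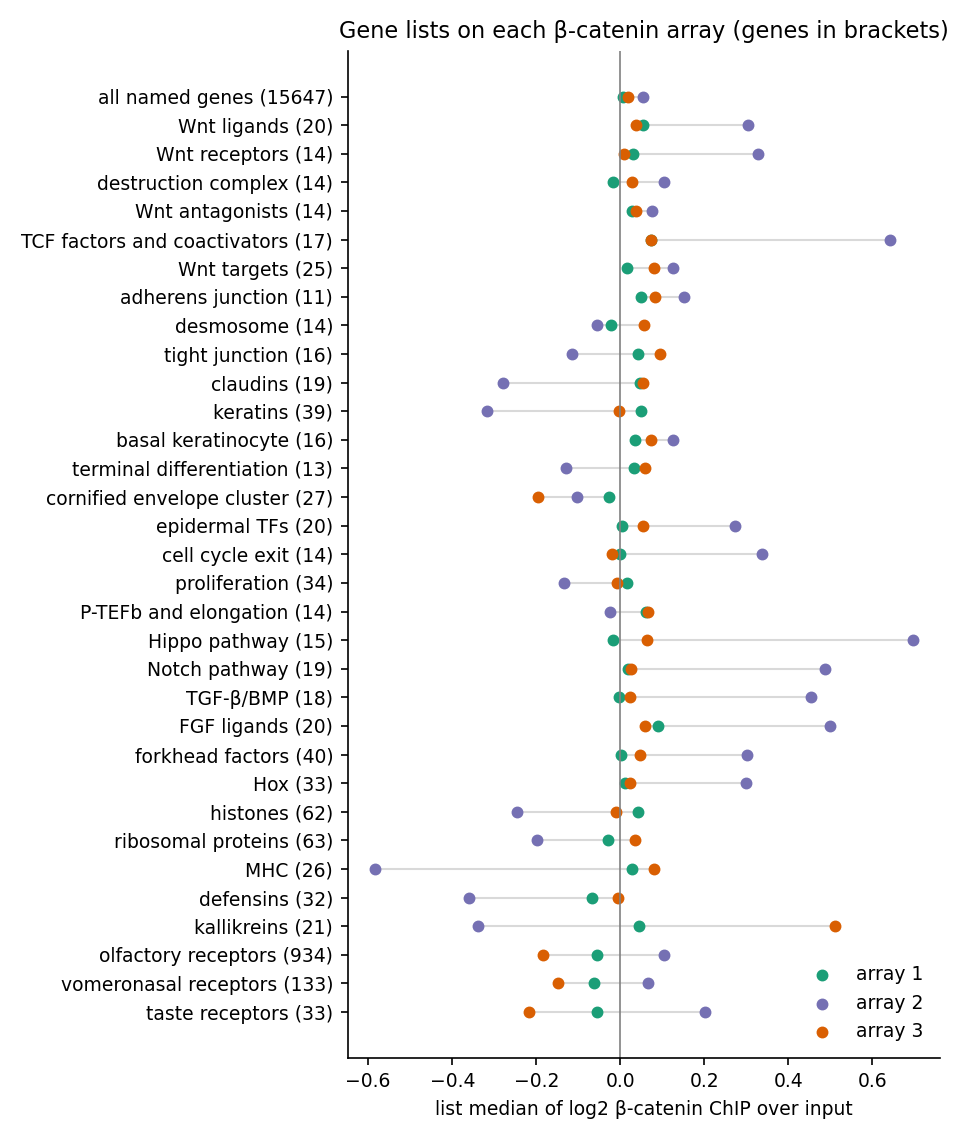
Median centred log2 ratio of β-catenin ChIP over input in gene lists and families, with the number of named genes in brackets and 1 point for each of the 3 arrays. Points of array 2 lie farthest from 0 for most lists, such as TCF factors and coactivators at 0.64, while kallikreins lie highest on array 3, at 0.51.

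Gene lists and families behaved differently from the top promoters, since their medians followed array 2 more than array 3. Over all 15647 named genes the median was 0.01, 0.05 and 0.02 on arrays 1 to 3 and 0.04 for the mean. Of these genes 19.1% were above 0 on all 3 arrays and 12.4% below on all 3. For 78 lists and families with at least 5 genes, the median was farthest from 0 on array 2 in 61, on array 3 in 14 and on array 1 in 3. With each array scaled to the same median absolute deviation, array 2 was farthest in 35, array 3 in 25 and array 1 in 18. Leaving out array 2 moved 21 lists to the other side of 0, leaving out array 3 moved 10 and leaving out array 1 moved 6. The median of a list shifted by 0.033 without array 3, against 0.064 without array 2 (median size of the shift). The largest shift without array 3 was that of the kallikreins, 0.268.

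The 10 lists that changed side without array 3 included the receptor families of the nose and mouth. Olfactory receptors went from -0.04 to 0.02, vomeronasal receptors from -0.04 to 0.01 and taste receptors from -0.04 to 0.05. Terminal differentiation genes went from 0.00 to -0.02, tight junction genes from 0.03 to -0.04 and kallikreins from 0.12 to -0.15. Except for the kallikreins these were small moves around 0. In 29 of the 78 lists the median was above 0 on all 3 arrays, and in 4 it was below on all 3.

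Of the 78 lists, the nuclear partners of β-catenin had the largest share of genes above the median on all 3 arrays. Of 17 genes for TCF factors and coactivators, 16 had a mean above 0 and 11 were above 0 on all 3 arrays, against 19.1% of all named genes. Their promoters were rich in GC, with a median of 72.3% in the 10 genes with a matched window. Of 5 gene classes by GC content, described below, the richest had 35.0% above 0 on all 3 arrays. How far GC content accounts for the share in this list was not tested. Their medians were 0.07, 0.64 and 0.07 on arrays 1 to 3, so array 3 did not carry the list, and its median was 0.31 without array 3 and 0.07 without array 2. Bcl9l, which bridges β-catenin to Pygopus, had 0.20, 0.43 and 0.22. Tcf7l1, a TCF factor that mostly represses, had 0.14, 0.15 and 0.28. Tcf7l2, another TCF factor, had 0.05, 1.24 and 0.13, and the acetyltransferase Ep300 had 0.08, 1.16 and 0.07. Bcl9l and Tcf7l1 were above 0 by similar amounts on each array, while Tcf7l2 and Ep300 were high on array 2 alone. Chd8, a chromatin remodeler that binds β-catenin, was the exception, with -0.13, -0.14 and -1.33. None of the 17 had a listed β-catenin peak. On the Plakoglobin arrays the medians of the same list were 0.17, 0.30 and 0.15, so they were above 0 there too, and on arrays 1 and 3 above the β-catenin medians.

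Wnt ligand genes had medians of 0.05, 0.30 and 0.04, with 17 of 20 above 0 on average and 5 above on all 3 arrays. Wnt4 was highest on its lowest array, with 0.10, 1.57 and 0.23. Porcn, the enzyme that acylates Wnt proteins, was the lowest, with 0.01, -0.03 and -0.08. Wnt receptor genes had medians of 0.03, 0.33 and 0.01, with 6 of 14 above on all 3 arrays and 0 below on all 3. The receptor gene Fzd4 had 0.13, 0.34 and 0.18, and Lgr6, an R-spondin receptor, had 0.05, -0.43 and -0.25. As with the TCF list, array 2 stood above the others and array 3 lay near the median of all genes.

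The destruction complex and the Wnt antagonists lay closer to the median. Genes of the destruction complex and its regulators had medians of -0.02, 0.10 and 0.03, with 5 of 14 above on all 3 arrays. Gsk3b, the kinase that marks β-catenin for degradation, had 0.14, 0.44 and 0.23. Apc, the scaffold of the complex, had -0.06, -0.14 and -1.87, the lowest of the list by its highest array. Wnt antagonist genes had medians of 0.03, 0.08 and 0.04, with 3 of 14 above on all 3 arrays. Sost, a secreted inhibitor of LRP receptors, had 0.07, 0.14 and 0.25. Apc was low on array 3, while Gsk3b and Sost stayed above 0 on each array.

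Wnt target genes, most of them known from other tissues, were above the median in part. Their medians were 0.02, 0.13 and 0.08, with 9 of 25 above on all 3 arrays and 1 below on all 3. A peak was listed for 1 of the 25, Sp5, on array 1. Sp5, a zinc finger factor, had 0.84, 0.51 and -0.02, so arrays 1 and 2 were high and array 3 was not. Ephb2, a receptor tyrosine kinase, had 0.15, 0.52 and 0.18, and Myc, a factor that drives proliferation, had 0.07, 0.30 and 0.08. Axin2, a feedback inhibitor of the pathway, had -0.16, 0.01 and -0.07, and Nkd1, another, had 0.05, 0.73 and 0.10. Ccnd1, the gene of cyclin D1, has 2 promoter sequences, at -0.17, -1.60 and 0.07 and at 0.11, -0.14 and 0.03. Axin2 and the second Ccnd1 sequence were within 0.2 of 0 on each array. The limma adjusted p over input was 0.894 for Sp5, 0.898 for Myc, 0.926 for Axin2 and 0.894 for Nkd1. Lgr5 was not analysed here.

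Junction genes were described by junction type. Of 11 adherens junction genes 6 were above 0 on all 3 arrays, and the medians were 0.05, 0.15 and 0.08. The median of their mean was 0.22, and 0.07 without array 2. Cdh1, which encodes E-cadherin, had 0.14, 0.68 and 0.21, and Ctnnb1 itself had 0.04, 0.53 and 0.10. Vcl, which encodes the actin-binding protein vinculin, had 2.25 on array 1 with a peak there, and 0.11 and 0.07 on arrays 2 and 3. Desmosome genes had medians of -0.02, -0.06 and 0.06, with 2 of 14 above on all 3 arrays and 3 below. Pkp4, a plakophilin-like catenin, had 0.09, 1.02 and 0.08, and Jup, the gene of Plakoglobin, had 0.05, 0.65 and -0.00. Tight junction genes had medians of 0.04, -0.12 and 0.09, with 8 of 16 above 0 on average and 4 above on all 3 arrays. Without array 2 the median of their mean was 0.10, above that of the adherens junction genes. Claudin genes, whose products seal tight junctions, had medians of 0.05, -0.28 and 0.06, and 6 of 19 had a mean above 0. The claudin median of the 3-array mean was -0.07, but 0.01 once arrays were scaled to the same median absolute deviation.

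In the mean of the 3 arrays, keratin and cornified envelope genes had medians below 0 and epidermal transcription factor genes a median above 0. For keratins and these factors the contrast rested mainly on array 2. Keratin genes had medians of 0.05, -0.32 and -0.00, and 11 of 39 (28.2%) had a mean above 0, against 56.4% of all named genes. Without array 2 their median was 0.03, so the low level rested on that array. Krt14, a keratin of basal cells, had 0.08, 0.03 and 0.15, and its partner Krt5 had -0.06, -0.13 and -0.02. Both lay near the median promoter on each array. Krt17, a keratin of hair follicles and injured skin, had -0.24, -0.31 and 2.82 with a peak on array 3, the 1 keratin over 1 on that array. Krt10 was not analysed here. Cornified envelope genes of the chromosome 3 cluster had medians of -0.03, -0.10 and -0.20, with 2 of 27 above on all 3 arrays and 6 below. Lce1b was the member over 1 on more than 1 array, with 1.59, -0.02 and 1.59. Ivl, which encodes involucrin, had 0.09, -0.13 and -0.09.

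Epidermal transcription factor genes had medians of 0.00, 0.27 and 0.05, with 16 of 20 above 0 on average and 5 above on all 3 arrays. The median of their mean was 0.19, and 0.06 without array 2, against 0.02 for all named genes without it. Cebpb had 0.10, 1.04 and 0.07 and was highest on its lowest array. Klf4, a factor of barrier formation, had -0.11, 0.56 and 0.08. Trp63, the master factor of stratified epithelia, had -0.04, 0.12 and 0.88, and so was high on array 3 alone. Basal keratinocyte genes were above 0 on all 3 arrays in 7 of 16. Egfr, the receptor of epidermal growth factor, and Itgb4, an integrin of hemidesmosomes, had 1.20 and 1.01 on array 3, with peaks there. Itgb1, another integrin, was high on array 2 instead, with 1.36.

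Cell cycle exit genes held single high members on array 3. Of all named genes 915 (5.85%) were over 1 on array 3, 558 (3.57%) on array 2 and 169 (1.08%) on array 1. Of 14 cell cycle exit genes 4 were over 1 on array 3 and 0 on array 2. Cdkn2b, an inhibitor of CDK4 and CDK6, had 0.00, 0.19 and 2.29. Btg2, an antiproliferative gene, had 0.62, 0.13 and 2.08, and its relative Btg1 had 0.16, 0.34 and 1.06. Rbl1, a pocket protein of the retinoblastoma family, had 0.19, 0.05 and 1.42. Btg2 had listed peaks on 2 arrays and the other 3 genes on array 3. Of the 4 peaks of the list on array 3, 0 lay within 500 bp of a start site, nor did its 1 peak on array 1. The median of the list was nevertheless 0.34 on array 2 and -0.02 on array 3, and Cdkn1a, another inhibitor, had -0.06, 0.33 and -0.03. Single genes were highest on array 3, and the list as a whole on array 2. In other growth lists, 1 of 34 proliferation genes, 0 of 6 G1 cyclin and CDK genes, 0 of 13 Myc network genes and 0 of 9 p53 targets were over 1 on array 3. These lists are short, so such counts do not set them apart from the 5.85% of all named genes.

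Genes of transcription elongation had single high members on array 2 and on array 3. Their medians were 0.06, -0.02 and 0.07 on arrays 1 to 3. Of 14 genes of P-TEFb, the kinase that releases paused polymerase, and its partners, 3 were over 1 on array 3 and 3 others on array 2. Hexim1, the inhibitor of P-TEFb, had 0.13, 0.30 and 1.77, with a mean of 0.73 ± 0.90 (SD, n = 3) and a limma adjusted p of 0.894. Larp7, which holds the 7SK RNA of the inactive complex, had -0.01, 0.36 and 1.75, and Ell, an elongation factor, had 0.12, -0.13 and 1.64. Cdk9, the kinase itself, had 0.01, 1.24 and 0.00, and Aff4, the scaffold of the super elongation complex, had 0.24, 1.21 and 0.10. Hexim1, Larp7 and Ell were thus high on array 3, and Cdk9 and Aff4 on array 2.

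Among the β-catenin arrays, signalling families, forkhead factors and Hox genes had their highest medians on array 2, in unscaled log2 units. Array 2 is also the broadest in its middle, with an interquartile range of 0.706 against 0.171 on array 1 and 0.267 on array 3. Medians of different arrays are thus not on the same scale here. Hippo pathway genes, which control organ size, had medians of -0.02, 0.70 and 0.06. Stk4, the kinase at the top of the pathway, had 0.09, 0.70 and 0.11, while Yap1, its main effector, had 0.03, 0.82 and 2.19. Notch pathway genes had medians of 0.02, 0.49 and 0.03, TGF-β and BMP genes -0.00, 0.45 and 0.02, and FGF ligand genes 0.09, 0.50 and 0.06. Of 20 FGF genes 10 were above 0 on all 3 arrays. Fgf22 had 0.16, 0.87 and 0.22, and Fgf17 had 3.63 on array 1 and about 0 on the others. Forkhead factors had medians of 0.00, 0.30 and 0.05 with 35 of 40 above 0 on average, and Foxc2 had 0.23, 0.70 and 0.34. Hox genes had medians of 0.01, 0.30 and 0.02. Array 3 added little to these families, whose medians without it were between 0.12 and 0.36. On Plakoglobin array 2 the medians were 0.19 for Hippo, 0.27 for Notch, 0.22 for TGF-β and BMP and 0.205 for FGF genes. Forkhead factors had 0.135 there and Hox genes -0.155. Plakoglobin array 1 had 0.28 for TGF-β and BMP and 0.25 for Notch genes.

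Kallikreins were the family whose median moved most with array 3. The 21 named kallikrein genes, serine proteases encoded in 1 cluster on chromosome 7, had medians of 0.04, -0.34 and 0.51 on arrays 1 to 3. On array 3, 8 of the 21 were over 1, against 5.85% of all named genes, and 7 had a listed peak, with 7 peaks in all. Klk1b22 had -0.16, -0.39 and 2.62, and Klk4 had -0.02, -0.16 and 2.21. Klk14 was the 1 with the highest value on its lowest array, at 0.06, 0.40 and 0.45. Klk7, which cleaves corneodesmosomes in the skin, had 0.27, -0.09 and 0.16. The high values lay mainly in the Klk1b genes, recent copies of each other in the mouse, and whether their probes also bind the copies was not tested. On the Plakoglobin arrays the medians of the 21 genes were 0.33, 0.07 and 0.15.

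Histone and ribosomal protein genes often had array 3 peaks while the median of their mean lay near 0. Peaks on array 3 were listed for 1451 of all named genes (9.27%). Among 62 histone genes 21 (33.9%) had one, against 3 on array 1 and 0 on array 2. Neighbouring histone genes share peaks, and the 21 genes rested on 12 peaks. H2bc6 had 0.42, -0.46 and 3.28, and H4c4 had 0.12, 0.32 and 2.35. On array 3, 5 of the 62 were over 1, and the median of the family was -0.01. Of 63 ribosomal protein genes 13 (20.6%) had a peak on array 3 and 10 were over 1 there, against 0 on array 2. Rpl13a had 0.10, -0.20 and 2.37 and Rps7 had -0.17, -0.21 and 1.76. Their median on array 3 was 0.04, so the family as a whole lay near the median promoter. In other housekeeping families the share with a peak on array 3 ran from 8.9% to 21.4%, against 9.27% of all named genes. It was 21.4% for the proteasome (6 of 28 genes), 17.4% for RNA polymerases (4 of 23), 16.7% for complex I (4 of 24) and 16.7% for tRNA synthetases (3 of 18). It was 15.4% for mitochondrial ribosomal proteins (10 of 65) and 13.9% for splicing factors (5 of 36). Lower shares were 10.3% for respiratory complexes II to V, 10.0% for translation initiation factors and 8.9% for heat shock proteins and DnaJ cochaperones. Each of these shares rests on few genes, and whether they differ from 9.27% was not tested.

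Sensory receptor and some immune families had a median below that of all named genes. For the receptors array 3 had the lowest medians of the 3 arrays. The 934 olfactory receptor genes had medians of -0.06, 0.10 and -0.18. On array 3, 84 of them (8.99%) were over 1, against 5.85% of all named genes, and 35 were under -1. A peak was listed for 109 (11.7%) on array 3, against 9.27% of all named genes, and for 3 and 8 on arrays 1 and 2. On all 3 arrays, 67 were above 0 and 171 below. Olfr676 had 0.38, 0.68 and 3.96, and Olfr1337 had -0.41, -0.84 and -0.75. Vomeronasal receptors, 133 genes, had medians of -0.06, 0.07 and -0.15, and taste receptors, 33 genes, had -0.06, 0.20 and -0.22. Over 1 on array 3 were 10 vomeronasal receptors (7.52%) and 1 taste receptor (3.03%). Defensins, antimicrobial peptides, had medians of -0.07, -0.36 and -0.00, with 0 of 32 above on all 3 arrays and 11 below. Genes named H2-, most of them of the major histocompatibility complex, had medians of 0.03, -0.58 and 0.08, the lowest of any list on array 2. Their median of the 3-array mean was -0.16, and 0.025 after quantile normalization and -0.01 with arrays scaled to the same median absolute deviation.

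**Figure D4:**
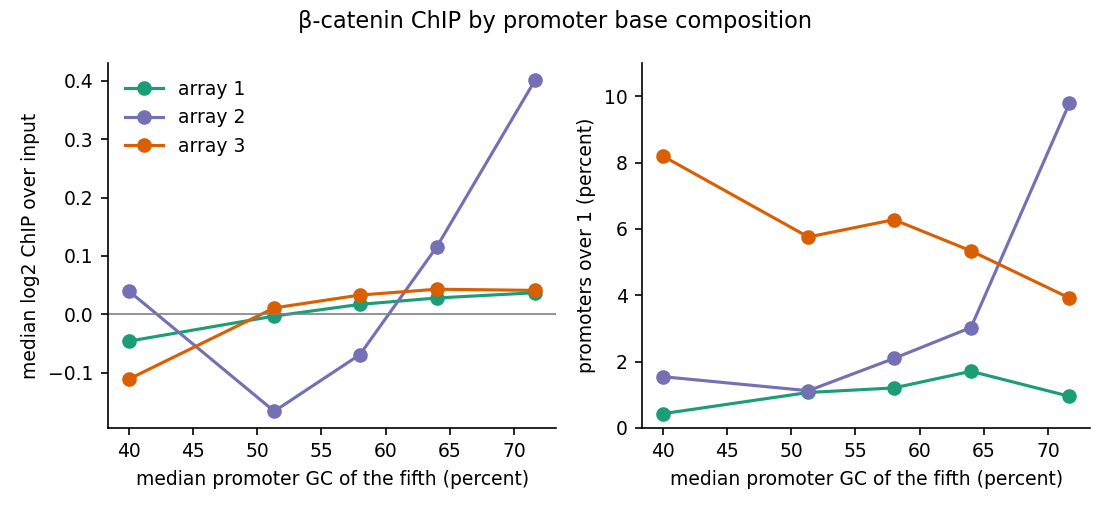
Left, median centred log2 ratio of β-catenin ChIP over input, and right, the percent of promoters over 1, for 5 classes of 9274 genes by the GC content of their promoter window, with 1 line for each of the 3 arrays. Array 2 rises to 0.40 in the class richest in GC, while the share over 1 on array 3 is highest, at 8.20%, in the class poorest in GC.

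The levels moved with the base composition of the promoter. For 9274 genes with 1 array sequence and 1 RefSeq window of 300 bases, the Spearman correlation of GC content with the ratio was 0.215, 0.264 and 0.21 on arrays 1 to 3. The genes were split into 5 classes of near equal size by GC content. In the class poorest in GC (median 40.0%) the medians were -0.05, 0.04 and -0.11. In the class richest in GC (median 71.7%) they were 0.04, 0.40 and 0.04. Array 2 did not rise steadily, since its medians in classes 2, 3 and 4 were -0.17, -0.07 and 0.12. The share of genes above 0 on all 3 arrays rose from 8.04% to 35.0% between these classes, and the share below on all 3 fell from 19.6% to 4.98%. High values on array 3 ran the other way: 8.20% of the GC-poor class and 3.92% of the GC-rich class were over 1. On array 2 the shares were 1.54% and 9.79%. The 72 lists with 5 or more such genes followed the same order, with a correlation between the GC content of a list and its median of 0.374, 0.668 and 0.423 on arrays 1 to 3. The median GC content was 72.3% in the TCF and coactivator list, 68.7% in the Hippo list, 50.0% in keratins and 35.0% in olfactory receptors. How far GC content accounts for the list medians was not tested. On the Plakoglobin arrays the correlation with GC content was 0.377, 0.076 and 0.223.

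The β-catenin ratio was compared between promoter windows with and without TCF/LEF core letters. The letters occurred in 1329 of the 9274 windows (14.3%), and in 17.1% of 22862 RefSeq windows of that length. The median ratio was -0.00 with the letters and 0.04 without them, and 13.8% against 19.8% were above 0 on all 3 arrays. Windows with the letters were poorer in GC, with a median of 50.0% against 58.7%. Within the GC classes the median with the letters minus that without was -0.01 to 0.03, and above 0 in 4 of 5 classes. The share above 0 on all 3 arrays had no common order over the classes. In GC class 1, the poorest, it was 6.86% with the letters and 8.49% without. It was 11.8% and 11.2% in class 2, and 17.1% and 17.2% in class 3. In class 4, where 125 windows held the letters, it was 29.6% and 24.0%, and in the richest 35.1% and 35.0%. Of the windows shown above, that of Sp5 holds the letters and that of Axin2 does not. This pair does not stand for all windows, where the median was higher without the letters. The GC box (GGGCGG on either strand) was present in 4689 windows (50.6%, and in 35.2% of all RefSeq windows). Genes with it had a median of 0.09 and were above 0 on all 3 arrays in 25.3%, against -0.02 and 12.5% without it. Their median GC content was 64.0%, against 50.0% without the box. The AP-1 letters TGANTCA, the site of a factor family active in keratinocytes, were in 651 windows (7.02%, and in 7.98% of all), with a median of -0.03 against 0.04 without, and a median GC content of 49.0% against 58.3%. A match of letters is not a bound site, and these windows cover only bases next to the start.

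Listed peaks lay in different places on the 3 arrays. On array 1, 335 of 436 peaks (76.8%, 95% exact binomial interval 72.6% to 80.7%) had their centre within 500 bp of the nearest listed start site. On array 2 it was 291 of 330 (88.2%, 84.2% to 91.5%), and on array 3 it was 1003 of 1958 (51.2%, 49.0% to 53.5%). The intervals cover counting error of the peaks of an array only. The median distance was -120.5, -48.5 and -409.0 bp from the start site on arrays 1 to 3, with upstream negative. More than 900 bp upstream lay 38 peaks (8.72%) on array 1, 7 (2.12%) on array 2 and 506 (25.8%) on array 3. Of the olfactory receptor peaks on array 3, 72 of 118 lay within 500 bp. Array 3 thus had the most peaks and also the widest spread of them along the promoter regions.

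**Figure D5:**
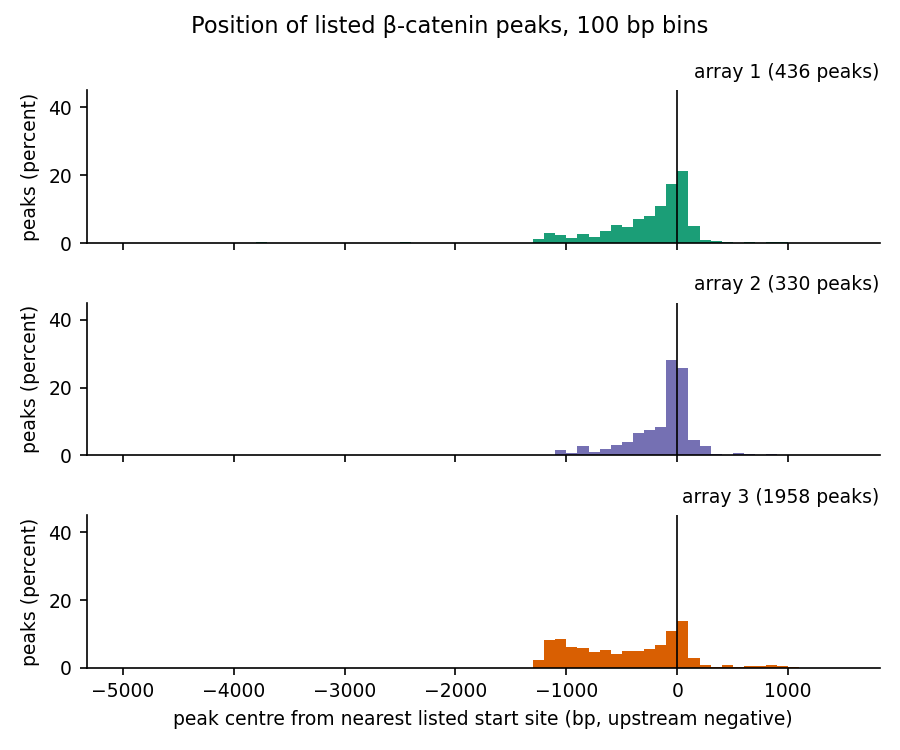
Percent of the listed β-catenin peaks of each array in steps of 100 bp from the nearest listed start site to the peak centre, with upstream distances negative. Peaks of arrays 1 and 2 gather at the start site, with 76.8% and 88.2% within 500 bp, while those of array 3 spread upstream, with 51.2% within 500 bp.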

How the data were processed

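The authors deposited, for each of the 6 arrays, the log2 ratio of ChIP over input per promoter sequence as mean and median of the probes in it, per the file headers. The SD over probes, taken here as a score, was also computed by the authors, per the file headers. The mean column was used, and the table of the whole series held the same values (largest difference 0). The normalization before that step, the aligner, the array region and the genome build are not given in the sources used here. Peak lists (1 for each array, with a false discovery rate as q-value) were deposited by the authors and served for position and for which promoters had a peak; the peak q-value was used only in a stricter alternative. Columns of samples outside the series numbered 0.

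Of 26275 promoter sequences 75 had no value. Names came from RefSeq GRCm38.p6 by accession (12527 sequences), symbol (1710) or synonym (1794), the files' own name was used for 813, and 9356 had none. Each array was centred on its median. limma 3.58.1 in R 4.3.3 fitted group means over all 6 arrays (eBayes with trend, two-sided, Benjamini-Hochberg over 26200) and was tested on simulated data. Other steps ran in Python 3.11.15 with numpy 2.4.6 and pandas 2.3.3, intervals with scipy 1.17.1 and plots with matplotlib 3.10.9. Deviations of same-numbered arrays from their group means correlated at 0.203, 0.235 and 0.218, so a replicate block was fitted as an alternative. The labels give the numbers but do not say what arrays of the same number shared.

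Among genes with 1 sequence, the text names the 10 with the highest value on their lowest array and the 10 lowest on their highest array, the 10 smallest p per direction, the 8 with the largest excess of array 3, the same extremes of each list, and fixed genes. It describes those with a clear role, and list members outside the rule were chosen after their values were seen. The members, lists and families were chosen with earlier results of these data known. The number of arrays limits the precision: the median standard error of a promoter's mean was 0.205.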

Additional observations from a re-analysis of the deposited data

How the results depend on the processing

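In limma, 0 promoters passed an adjusted p of 0.05 under every alternative run. The counts at an unadjusted p under 0.05, 68 above and 392 below, were less stable. They were 1634 and 18 without centring, 254 and 872 with each array scaled to its median absolute deviation, 382 and 460 with quantile normalization, 43 and 539 with the median over probes, 310 and 275 with no trend in eBayes, 54 and 119 when eBayes was robust, 0 and 176 with the 3 β-catenin arrays alone, and 55 and 225 with accessions of 1 sequence. With the replicate block they were 55 and 2414, and the block changed no call, since 0 passed (lowest adjusted p 0.202). The error of that fit leaves out the spread shared by same-numbered arrays, so its counts are not on the same footing as the others. An alternative chosen after seeing the data, β-catenin arrays 1 and 2 alone, gave 0 and 0. For the difference between antibodies, the block, also added after seeing the data, gave 121 higher and 186 lower against 42 and 149, and 0 passed. Leaving out 1 array at a time gave 9 to 252 above and 205 to 726 below. Above, the count moved by over 1.5 times without β-catenin array 1 (252) or 2 (35) and without Plakoglobin array 1 (20), 2 (42) or 3 (9). Below, it did so without β-catenin array 3 (233) and without Plakoglobin array 2 (726) or 3 (205). Promoters above the median on all β-catenin arrays were 15175 without centring, and 298 were below. With 1 of the 6 arrays left out the counts were 4281 to 7271 above and 4049 to 7282 below, where fewer β-catenin arrays had to share a side once one of them was left out. The cause of the other changes was not tested.

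Of 78 list medians, the side of 0 changed in 26 without centring, where the median of all named genes was 0.30, in 14 with scaling, 14 with quantile normalization, 10 with the median over probes, 3 with accessions of 1 sequence and 4 with a gene's highest sequence. Scaling left the TCF and coactivator median at 0.23, the Hippo median at 0.16 and the kallikrein median at 0.25, and turned the desmosome, claudin, histone and ribosomal protein medians, all within 0.1 of 0, to the other side. Counting every listed start site, 69.8%, 79.0% and 42.7% of peak entries on arrays 1 to 3 lay within 500 bp. At a false discovery rate up to 0.05 the shares were 76.2%, 89.5% and 50.9%, of 374, 19 and 1477 peaks. With 3 arrays that correlate at 0.14 or less, a mean of 1.18 at Clca2 did not pass (adjusted p 0.894).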

Other observations

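Chromosomes differed mainly on array 2. Named genes of the X chromosome (525) had a median of 0.24 on array 2, those of chromosome 14 had 0.21 and those of chromosome 4 had 0.20, while chromosome 5 had -0.17. On array 3 the chromosome medians, leaving out the 13 genes of the Y chromosome, lay between -0.02 and 0.04.

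Repeated array sequences made up a part of the low end. There were 4 accessions with 100 or more sequences each, 2632 sequences together, none of them named here, and 32.2% were below the median on all 3 β-catenin arrays. They were 20.9% of all promoters below the median on all 3 arrays, and without them the share below was 13.6% and the share above 17.8%.

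Some genes were far below the median on array 3 alone, and they were chosen after their values were seen. Sostdc1, a BMP and Wnt antagonist of hair follicles, had -0.04, 0.44 and -4.13 on arrays 1 to 3, and Tnks, which encodes tankyrase, had -0.03, 0.02 and -2.17.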
